A study of Mus musculus with 2 samples.

Results

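Sphingosine-1-phosphate (S1P) receptors, the transcription factor gene Klf2 and 2 further genes of lymphocyte traffic, Cd69 and Ccr7, were followed in splenic natural killer (NK) cells and in the other lymphocytes recovered with them. The 6 genes, S1pr1, S1pr4, S1pr5, Klf2, Cd69 and Ccr7, were taken by symbol from the 32285 genes of the count matrix, and all 6 were found. The cells came from spleens of wild-type mice, with no treatment named in the labels and no age or strain given in the sources used here. NK cells had been enriched on magnetic columns that retain antibody-labelled T, B, dendritic, erythroid, granulocyte and macrophage cells. Cells of several mice carried lipid tags and were run as 1 library for 3′ RNA counting, and 1 of the 2 samples in the labels, both of the same group, has the matrix analysed here. The other sample was not analysed here.

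S1P is a lipid that is abundant in blood and lymph and scarce inside lymphoid tissue, and lymphocytes that carry S1P receptors leave the tissue toward it. S1PR1 serves exit of T and B cells, S1PR5 is the receptor best known for exit of NK cells from lymph node and bone marrow, and S1PR4 is a further lymphocyte receptor with a less defined part in traffic. KLF2 is a zinc finger factor of resting lymphocytes and an activator of S1pr1 in T cells. CD69, an early activation antigen, binds S1PR1 and takes it from the cell surface, and CCR7 draws T, B and dendritic cells into lymph nodes and T cell zones. NK cells in mice pass from CD27-only through CD27 CD11b (Itgam) double-positive to CD11b-only cells, and KLRG1 marks the most mature of these.

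The genes lie on different chromosomes of the mouse assembly GRCm38 (mm10), with positions from GENCODE vM21. S1pr1 is at chr3:115710433-115715072, S1pr4 at chr10:81497747-81500132, S1pr5 at chr9:21242912-21248443, Klf2 at chr8:72319033-72321656, Cd69 at chr6:129267325-129275436 and Ccr7 at chr11:99144196-99155077. Klf2 is on the plus strand and the others are on the minus strand. S1pr5 overlaps Gm48303 on the opposite strand, and whether the counting used strand is not given in the sources used here, so reads of that pair may not be separated. The 250 bases before the RefSeq start sites of S1pr5, S1pr4 and Klf2 are shown. The core letters of KLF binding motifs (CACCC, or GGGTG for the other strand) are in capitals. All 3 genes were higher in the last NK stage than in the first, as given below, though not every single step passed the test. RefSeq sequences of GRCm38.p6 were available for these 3 of the 6 genes only, so S1pr1, Cd69 and Ccr7 could not be shown. The windows are chr9:21248444-21248693 (minus strand), chr10:81500138-81500387 (minus strand) and chr8:72318812-72319061 (plus strand).
S1pr5: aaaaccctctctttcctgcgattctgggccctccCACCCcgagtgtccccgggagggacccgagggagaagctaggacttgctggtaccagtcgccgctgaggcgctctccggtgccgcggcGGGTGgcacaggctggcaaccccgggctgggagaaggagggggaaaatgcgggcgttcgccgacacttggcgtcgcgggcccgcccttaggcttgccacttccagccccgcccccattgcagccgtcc
S1pr4: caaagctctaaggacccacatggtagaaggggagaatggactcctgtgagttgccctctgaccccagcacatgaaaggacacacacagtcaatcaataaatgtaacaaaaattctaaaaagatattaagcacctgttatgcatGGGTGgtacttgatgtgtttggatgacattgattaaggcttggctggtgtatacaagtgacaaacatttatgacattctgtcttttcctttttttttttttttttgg
Klf2: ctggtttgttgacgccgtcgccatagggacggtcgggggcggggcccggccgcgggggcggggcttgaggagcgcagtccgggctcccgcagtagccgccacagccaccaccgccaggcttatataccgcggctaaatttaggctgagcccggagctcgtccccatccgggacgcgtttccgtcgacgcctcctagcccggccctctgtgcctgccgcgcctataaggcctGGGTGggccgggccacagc

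The S1pr5 window held 2 KLF cores, starting 216 and 128 bases before the start site. The S1pr4 window held 1, starting 107 bases before it, and the Klf2 window held 1, starting 19 bases before it. The GENCODE gene of Klf2 begins at 72319033, inside that window. Its KLF core therefore lies before the RefSeq start but within the GENCODE gene. A KLF core on either strand occurred in 52.0% of 32817 promoter windows of the same length, so its presence does not single these genes out. The S1pr4 window also held CACCTG, the E-box letters bound by ZEB factors (CAGGTG on the other strand), starting 121 bases before the start and without overlap with the KLF core, as did 17.2% of all windows. The letters GGTGTGA (T-box), GTAAACA (FOXO) and TGANTCA (AP-1) were searched on both strands and matched in none of the 3 windows. They occurred in 3.33%, 3.16% and 6.75% of all windows. The S1pr5 and Klf2 windows were 69.2% and 71.2% G or C, against 38.8% for S1pr4.

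Of the 16384 barcodes, 11696 passed the filter on genes and mitochondrial reads and carried 1 tag. Tags 1, 2 and 3 marked 3590, 4213 and 3893 of these cells, with medians of 4026.5, 4433 and 4125 unique molecular identifiers (UMIs, counted RNA molecules) per cell. The tags served as replicates. The labels do not tie a tag to a mouse, so all p-values below rest on 3 tags of 1 library, whose variation may be technical. Where the tag was a block, they measure how consistently classes differ within tags. Shifts shared by all classes of a tag are then taken out. Clusters built without the 6 genes gave 8597 NK-like, 496 innate lymphoid cell type 1 (ILC1)-like, 154 T cell-like and 713 B cell-like cells. In NK-like cells the granzyme gene Gzma was detected in 96.8%, Ncr1, which encodes the NK receptor NKp46, in 91.5% and Eomes, an NK lineage factor, in 66.1%. Il7r, the interleukin 7 receptor, had a UMI in 86.7% of ILC1-like cells, the highest share of the ILC1 markers. Inpp4b was detected in 71.0%, Rora in 67.3% and Tmem176b in 57.1%. Tmem176a was found in 49.4%, Cd200r1 in 28.6% and Itga1 in 26.6%. These marker shares count all UMIs of a cell. Levels are given as UMIs of a gene in CPM, which scales them to the gene UMIs of the same tag and class, with the SD over the 3 tags. Shares of cells come from cells thinned to 2500 UMIs each, and 7323 NK-like cells were deep enough.

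NK stages were read from UMIs of Cd27, Itgam and Klrg1 in the thinned cells. The Cd27-only class held 909 cells, the class with both Cd27 and Itgam 453, the Itgam-only Klrg1- class 1873 and the Itgam-only Klrg1+ class 704. A further 3384 cells had neither Cd27 nor Itgam and received levels but no test. Doublets of cells with the same tag, estimated below at 15.3% of analysed barcodes, can join a Cd27 cell and an Itgam cell. Such doublets would be placed in the class with both, and their part in its levels was not tested. A class often rests on a single molecule: 82.2% of Cd27-only cells had 1 Cd27 UMI and 69.5% of Klrg1+ cells had 1 Klrg1 UMI. The unthinned level of Klrg1 was 459 ± 14.2 CPM (SD, n = 3) in the Klrg1+ class and 39.6 ± 6.44 CPM in the Klrg1- class. These counts include the UMIs that set the gate, so the gap is no check of it. Median depth fell along the stages, from 4953 UMIs in Cd27-only to 4308, 3872 and 3678 UMIs in the following classes.

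Along these stages the receptor genes moved in opposite directions, in the comparison of the first class with the last. S1pr5 and S1pr4 were higher and S1pr1 was lower in Itgam-only Klrg1+ cells than in Cd27-only cells, Klf2 was higher and Cd69 was lower. All 5 of these genes passed edgeR's quasi-likelihood test in that comparison, in which 14.9% of 9138 genes did. Ccr7 did not reach the count needed for a test in any stage. Markers of other cells moved with the stages too. The 6 monocyte or macrophage markers summed to means of 225, 306, 483 and 827 CPM in the 4 ordered stages. Of these sums Ly6c2 made up 176, 264, 433 and 783 CPM, while Lyz2 was at 5.35 CPM in the first and 5.83 CPM in the last stage, Ms4a6c at 42.1 and 37.9, and Adgre1 had 0 UMIs in both. From the first to the last stage the sums of the 8 T cell markers went from 56.3 to 13.7 CPM, with 2 of the 8 at 0 UMIs in each (Cd4 in both). Those of the 7 ILC1 markers went from 173 to 104 CPM and those of the 4 progenitor markers, mostly Kit, from 67.1 to 23.3 CPM. The ILC1 markers did not move together. Il7r went from 53.5 to 8.14 CPM, Inpp4b from 25.7 to 5.58, Tmem176a from 5.64 to 1.03 and Cd200r1 from 2.78 to 0.903. Rora, at 73.5 and 69.3 CPM, and Tmem176b, at 5.49 and 5.56, stayed within their spread, and Itga1 rose from 6.07 to 13.3. In 1 alternative, cells holding a UMI of Cd3e, Cd79a, H2-Aa, Lyz2 or Hbb-bs, genes of other lineages, were left out. The end-to-end log2 differences were then 1.14 for S1pr5, -1.39 for S1pr1, 0.53 for S1pr4, 0.53 for Klf2 and -1.04 for Cd69. All 5 passed edgeR's test. This filter used neither Ly6c2 nor any ILC1 or progenitor marker, and Cd3e alone of the T cell markers. It therefore cannot show whether the marker shifts above bear on these differences.

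**Figure D1:**
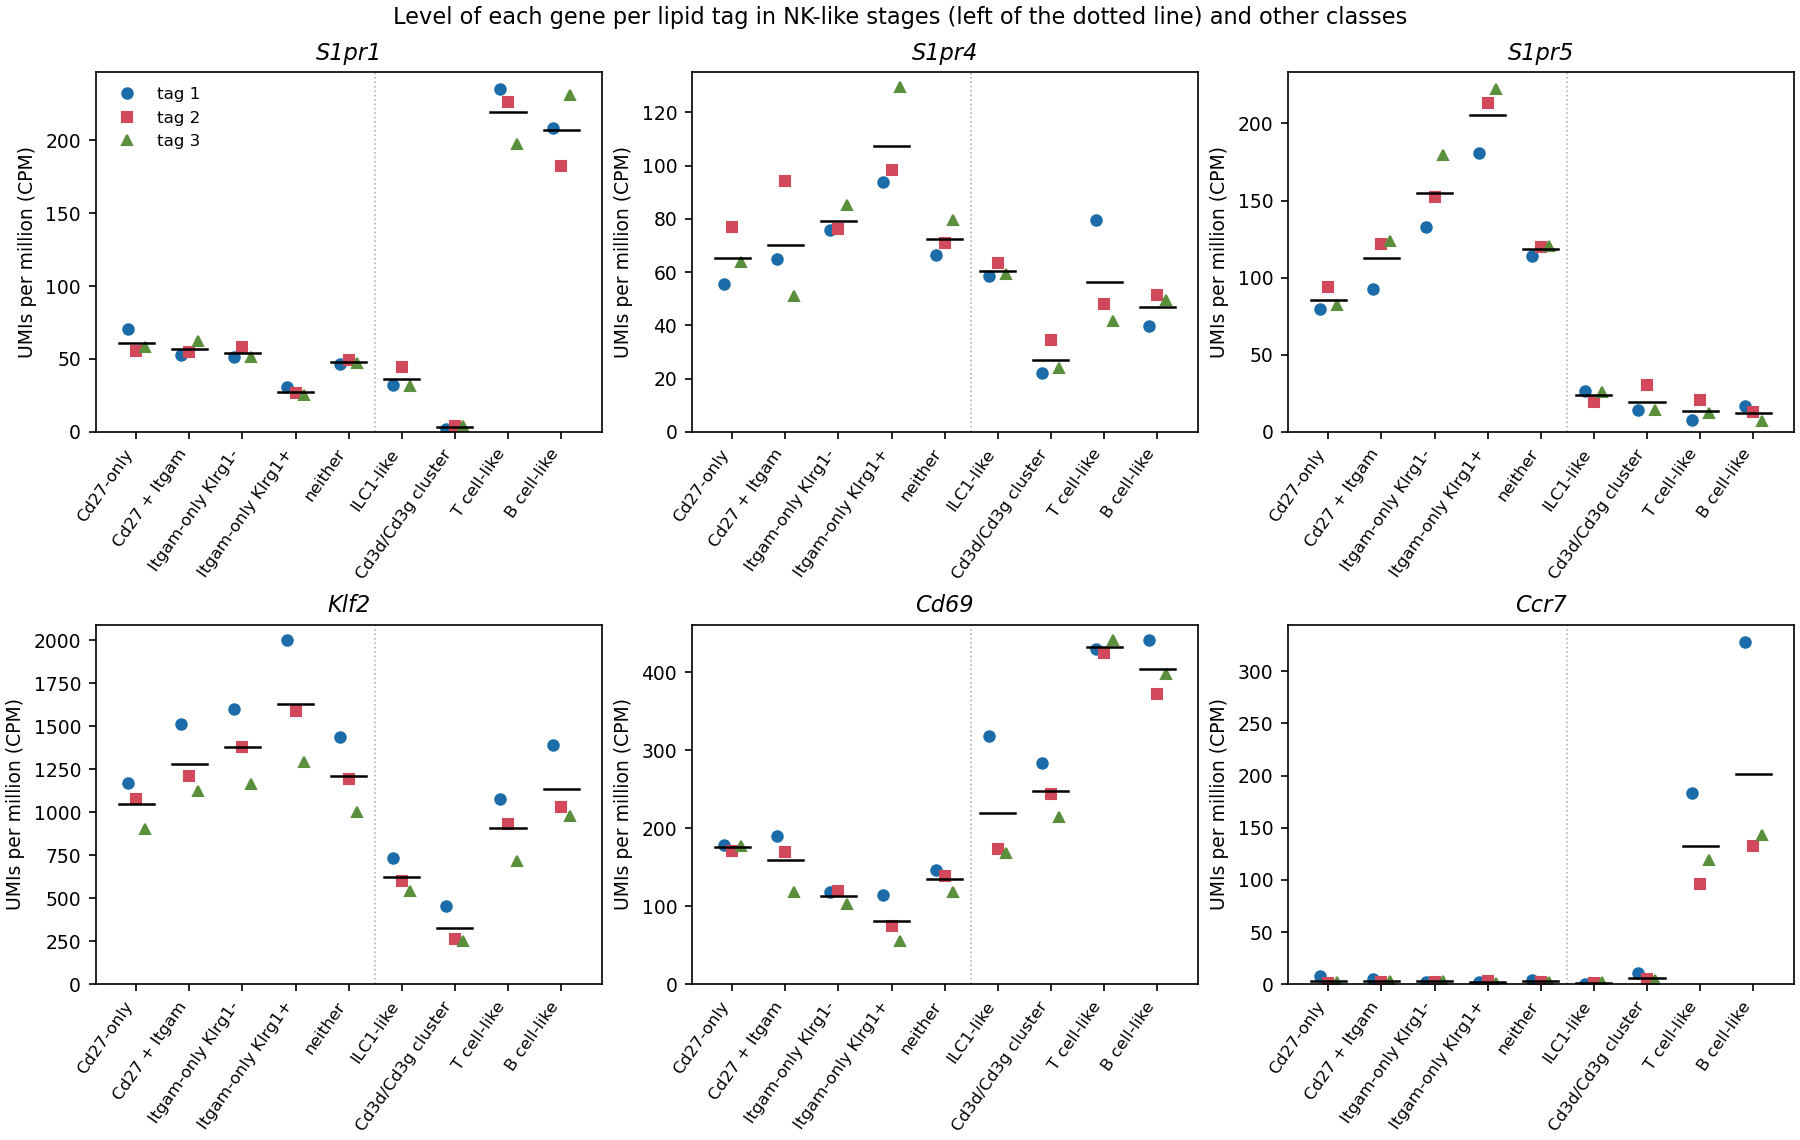
Level in CPM of each of the 6 genes (vertical axes, linear from 0) in the NK stages and in the other classes (horizontal axes). Points are the 3 tags and black bars their mean; S1pr5 climbs from 85.4 to 205 CPM across the 4 ordered NK stages while S1pr1 drops to 27.6 CPM in the last of them.

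S1pr5, the NK exit receptor, was at 79.7, 94.1 and 82.4 CPM in tags 1, 2 and 3 of Cd27-only cells. The class with both markers had 93.0, 122 and 124 CPM. Itgam-only Klrg1- cells had 133, 153 and 180 CPM and Klrg1+ cells 181, 213 and 222 CPM. The means rose in order at 85.4 ± 7.64, 113 ± 17.2, 155 ± 23.3 and 205 ± 22.0 CPM, and the lowest tag of the last class was above the highest tag of the class before it, by a small margin. The first 2 classes also differed in mean by more than either SD, though their tags overlapped. From end to end, S1pr5 was 2.31-fold higher in Klrg1+ cells (log2 difference 1.21, SE 0.099, adjusted p = 1.9e-19, edgeR quasi-likelihood test), in 3 of 3 tags. Its rise passed the test at 2 of the 3 single steps: 0.43 (SE 0.11, adjusted p = 0.016) on the log2 scale from both markers to Itgam-only Klrg1-, where 0.974% of genes passed edgeR's test, and 0.42 (SE 0.084, adjusted p = 0.00026) from Klrg1- to Klrg1+, where 3.26% did. The call at the former step was lost when any 1 of the 3 tags was left out (adjusted p of 0.16, 0.095 and 0.18 without tags 1, 2 and 3) and in 10 of 18 alternatives in all, and that at the latter without tag 2 (adjusted p = 0.059). From Cd27-only to both, where 3.03% of genes passed, the difference of 0.36 (95% interval 0.12 to 0.60) did not, at adjusted p = 0.092 (edgeR). The share of thinned cells with an S1pr5 UMI went from 20.2% (exact binomial 95% interval 17.7 to 23.0%) in Cd27-only to 40.8% (37.1 to 44.5%) in Klrg1+ cells. B cell-like cells, which are not known for S1pr5, had a UMI in 1.74% of cells. Whether these UMIs are background or low expression was not tested.

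S1pr1, the receptor that serves T and B cell exit, was flat over the first 3 stages and dropped at the last. Its levels were 70.4, 55.2 and 58.0 CPM in Cd27-only, 52.7, 54.9 and 62.6 CPM with both markers, and 51.3, 58.5 and 51.7 CPM in Itgam-only Klrg1- cells. In Klrg1+ cells it was at 30.7, 26.4 and 25.7 CPM, below every tag of every earlier stage. The first 3 means, 61.2 ± 8.07, 56.7 ± 5.19 and 53.8 ± 4.04 CPM, did not differ beyond their spread. The Klrg1 step was 1.94-fold (log2 -0.96, SE 0.17, adjusted p = 2.7e-05, edgeR) and the whole range 2.25-fold (log2 -1.17, SE 0.18, adjusted p = 6.3e-08). At the first and second steps the log2 differences were -0.13 (95% interval -0.45 to 0.19) and -0.08 (-0.39 to 0.23), with adjusted p of 0.82 and 0.94 in edgeR. These intervals allow a fall of up to 0.45 on the log2 scale, so a small earlier decline could not be resolved at this depth. The share of thinned cells with an S1pr1 UMI was 12.9% in Cd27-only, 12.4% with both markers, 11.6% in Klrg1- and 4.69% (3.25 to 6.52%) in Klrg1+ cells.

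The balance of both receptors therefore shifted most at the last step. Counts at the 3′ end do not grow with transcript length, but capture may differ between genes, so the ratio of S1pr5 to S1pr1 UMIs is compared between classes only. It was 1.13, 1.70 and 1.42 in the 3 tags of Cd27-only cells and 1.76, 2.22 and 1.98 with both markers. It reached 2.60, 2.61 and 3.47 in Itgam-only Klrg1- cells and 5.88, 8.06 and 8.67 in Klrg1+ cells, with no overlap between the last class and any other. ILC1-like cells had ratios of 0.83, 0.44 and 0.81, and in T and B cell-like cells the mean ratios were 0.062 and 0.061.

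S1pr4, the least defined of these receptors, changed less. It stood at 55.5, 76.9 and 63.8 CPM in Cd27-only cells, 65.1, 94.3 and 50.9 with both markers, 76.0, 76.2 and 85.2 in Klrg1- and 93.9, 98.3 and 130 CPM in Klrg1+ cells. The tags of the first 3 classes overlapped, and the class with both markers was the most variable. Klrg1+ cells lay above all Klrg1- and all Cd27-only tags. The end-to-end difference was 1.54-fold (log2 0.62, SE 0.13, adjusted p = 0.00015, edgeR), and the Klrg1 step was 0.42 (SE 0.12, adjusted p = 0.025) on the log2 scale. That step lost its call when any 1 of the 3 tags was left out, at adjusted p of 0.11 to 0.18, and in DESeq2, at 0.30. The other 2 steps, at 0.09 and 0.11, did not pass.

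**Figure D2:**
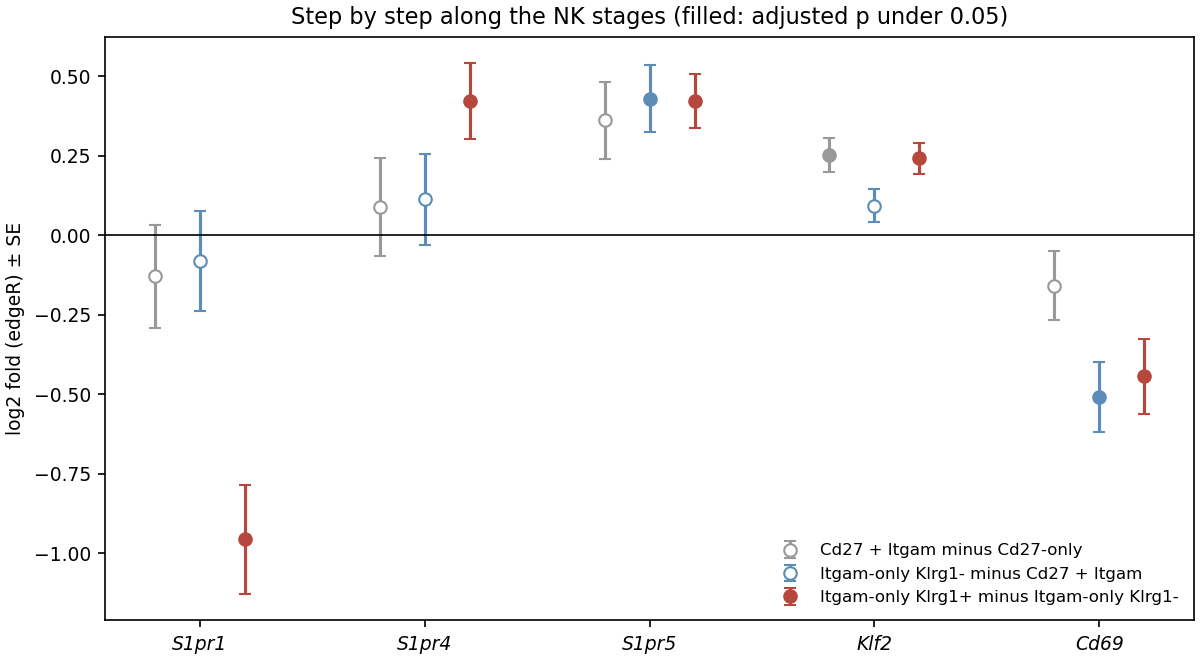
Log2 fold of each gene (vertical axis, point from edgeR, SE derived from its test statistic) at the 3 consecutive steps of NK maturation, with filled points where the adjusted p was under 0.05. S1pr1 moves at the Klrg1 step (-0.96) and stays near 0 before it, whereas S1pr5 lies between 0.36 and 0.43 at each step.

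Klf2 was the most abundant of the 6 genes in NK-like cells, with a UMI in 91.6% of thinned cells and a median of 3 UMIs per cell. Its levels in tags 1, 2 and 3 were 1168, 1077 and 903 CPM in Cd27-only, 1516, 1209 and 1125 with both markers, 1601, 1381 and 1165 in Klrg1- and 2004, 1587 and 1290 CPM in Klrg1+ cells. Tag 1 was highest and tag 3 lowest in every stage, and also in ILC1-like, T and B cell-like cells, and neighbouring stages overlapped while each tag rose at every step. The end classes did not overlap. With the tag as a block, Klf2 was 1.5-fold higher at the end than at the start (log2 0.59, SE 0.051, adjusted p = 3.9e-18, edgeR). Without that block the adjusted p was 0.12. Its first step, 0.25 (SE 0.053, adjusted p = 0.00065), and its last, 0.24 (SE 0.049, adjusted p = 0.00027), passed edgeR's test, and the step between them, 0.09 (95% interval -0.01 to 0.19), did not. Without tag 1, the adjusted p of the first step was 0.11 and that of the last 0.14; the first step lost its call in 5 of 18 alternatives. Immediate early genes, which respond within minutes to stimulation or handling, differed between the tags too. The 15 genes of that list summed to 5864 CPM in tag 1, 3159 in tag 2 and 3252 in tag 3 of NK-like cells, so the sum was highest in tag 1 but did not share the order of tags 2 and 3. Junb, Jund and Btg2 led the list, at 1156, 903 and 507 CPM on average. The part of handling in the Klf2 levels was not tested.

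Cd69 fell along the stages. Its levels were 178, 171 and 178 CPM in Cd27-only cells, 191, 170 and 118 with both markers, 118, 119 and 102 in Klrg1- and 114, 74.3 and 55.6 CPM in Klrg1+ cells. The end classes did not overlap. The SD was 37.5 CPM in the class with both markers and 29.7 CPM in Klrg1+ cells, where tag 1 lay within the range of the Klrg1- class. Cd69 was 2.16-fold lower at the end (log2 -1.11, SE 0.12, adjusted p = 8.8e-13, edgeR). The log2 difference of -0.51 from both markers to Klrg1- (SE 0.11) passed edgeR's test at adjusted p = 0.0038, but not without tag 1 (adjusted p = 0.16) or tag 2 (0.19). The Klrg1 step (-0.44, SE 0.12) passed at adjusted p = 0.015 but depended on the choice of molecules kept: with another random thinning the difference was -0.13 (adjusted p = 0.72). It was -0.31 (adjusted p = 0.53) without tag 2 and -0.35 (adjusted p = 0.13) without tag 3. Of the immediate early genes, 12 were tested between the end classes; 5 were lower in Klrg1+ cells and 1 was higher, where 8.19% of all genes tested were lower and 6.76% higher, with a median log2 difference of -0.14 against 0.01 over all genes. Without the 25% of NK-like cells highest in immediate early genes, the end-to-end difference of Cd69 was -1.27 (adjusted p = 1.4e-11, edgeR).

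Ccr7 was near the limit of detection in NK-like cells, with 110 UMIs among 38706643, or 2.90 ± 1.25 CPM. It had a UMI in 0.601% of thinned NK-like cells (exact binomial 95% interval 0.437 to 0.806%). Its level was between 2.17 and 3.50 CPM in the 4 ordered stages, with no order beyond the spread.

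NK cells that carried neither Cd27 nor Itgam UMIs sat between the ends for every gene but Ccr7. They had 118 ± 3.43 CPM of S1pr5, 47.7 ± 1.51 of S1pr1, 72.3 ± 6.65 of S1pr4, 1211 ± 217 of Klf2 and 134 ± 15 of Cd69. These cells hold stages that the gate did not resolve, so they are given as levels only.

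Compared across lymphocytes, S1pr5 was the gene that set NK cells apart, and Klf2 separated them from ILC1-like cells. ILC1 are tissue-resident relatives of NK cells. The tests below compare classes built by clustering other genes of the same cells, so they accompany the levels and are no independent check of the classes. NK-like cells had 121, 132 and 140 CPM of S1pr5 in tags 1, 2 and 3, ILC1-like cells 26.5, 19.7 and 25.6, T cell-like cells 7.96, 20.6 and 12.1, and B cell-like cells 16.9, 12.9 and 6.88 CPM. The NK-like values lay above all others, and those of T and B cell-like cells overlapped with each other and, in 1 T cell tag, with ILC1-like cells. NK-like cells exceeded ILC1-like cells 5.41-fold (log2 2.44, SE 0.16, adjusted p = 4.8e-15, edgeR). They exceeded T cell-like cells by 3.13 (SE 0.31) and B cell-like cells by 3.36 (SE 0.19) on the log2 scale. The shares of genes that passed in these comparisons were 24.8%, 25.0% and 48.7% of 8971.

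S1pr1 was highest in the T and B cell-like classes, with T cell-like cells at 235, 226 and 198 CPM and B cell-like cells at 208, 182 and 231 CPM. These overlapped with each other and lay far above NK-like cells, at 51.4, 51.8 and 50.1 CPM, and ILC1-like cells, at 32.1, 44.8 and 31.6 CPM. NK-like cells were 5.06-fold below T cell-like cells (log2 -2.34, SE 0.15, adjusted p = 1.3e-15, edgeR) and 4.95-fold below B cell-like cells (log2 -2.31, SE 0.10). The excess over ILC1-like cells was 1.41-fold (log2 0.49, SE 0.16, adjusted p = 0.019, edgeR) and was lost in 6 of 11 alternatives, among them DESeq2 (adjusted p = 0.057), without tag 1 (0.052) and without tag 3 (0.20). The Klrg1+ NK cells, at 27.6 ± 2.71 CPM, and ILC1-like cells, at 36.2 ± 7.47, had the lowest S1pr1 of the named lymphocyte classes.

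S1pr4 was spread most evenly. Its mean was 75.2 ± 5.30 CPM in NK-like, 60.5 ± 2.54 in ILC1-like, 56.4 ± 20.4 in T and 47.0 ± 6.31 CPM in B cell-like cells. The difference from B cell-like cells passed edgeR's test (log2 0.42, SE 0.14, adjusted p = 0.0099), though not with NK cells taken by UMIs alone (0.29, adjusted p = 0.098). Those from ILC1-like cells (log2 0.30, 95% interval 0.04 to 0.56, adjusted p = 0.098) and T cell-like cells (0.23, interval -0.19 to 0.66, adjusted p = 0.50) did not.

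Klf2 was at 1502, 1253 and 1074 CPM in NK-like cells and at 734, 601 and 544 CPM in ILC1-like cells, with no overlap, a 2.00-fold difference (log2 1.00, SE 0.083, adjusted p = 2.5e-12, edgeR). A Klf2 UMI was found in 91.6% of thinned NK-like and 58.5% of ILC1-like cells. T cell-like cells had 907 ± 182 CPM; the log2 difference of 0.24 (SE 0.091) from NK-like cells stood at the threshold (adjusted p = 0.04999, edgeR), and 7 of 11 alternatives did not call it, among them the fits without tag 1 (0.059) and without tag 3 (0.28). B cell-like cells had 1133 ± 224 CPM. There the direction depended on scaling: CPM were higher in NK-like cells in all 3 tags, while the TMM-scaled log2 difference was -0.08 (95% interval -0.24 to 0.07, adjusted p = 0.42).

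Among the 4 named lymphocyte classes, Cd69 and Ccr7 had their highest levels in T and B cell-like cells. Cd69 was at 432 ± 8.61 CPM in T and 404 ± 35.3 CPM in B cell-like cells, which did not differ beyond their spread, against 133 ± 13.9 CPM in NK-like cells. The log2 differences of NK-like cells were -2.01 (SE 0.15) and -1.87 (SE 0.12), both passing edgeR's test. ILC1-like cells had 318 CPM in tag 1 and 174 and 168 CPM in tags 2 and 3, all above the NK-like values of 144, 138 and 117 CPM (log2 -0.70 for NK-like minus ILC1-like, SE 0.13, adjusted p = 0.00035, edgeR). The immediate early genes of ILC1-like cells summed to 8363 CPM in tag 1, against 4801 and 3924, and 8 of the 12 tested were lower in NK-like than in ILC1-like cells and 0 higher, where 13.7% of all genes tested were lower. Their part in the Cd69 difference was not tested. Ccr7 was at 183, 96.0 and 120 CPM in T and 328, 132 and 143 CPM in B cell-like cells. The log2 differences of NK-like cells from T and B cell-like cells were -5.84 (SE 0.24) and -6.33 (SE 0.15), both passing edgeR's test. ILC1-like cells had 4 Ccr7 UMIs in all, so their level was not separable from 0 at this depth.

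Cluster 8, of 397 cells, had NK as its best marker score but Cd3d, Cd3g and Cd160 among its leading genes and was left unnamed. It carried Ncr1 at 766 ± 36.7 CPM. S1pr1, at 2.33, 4.03 and 3.81 CPM in tags 1, 2 and 3, and S1pr4, at 22.2, 34.7 and 24.1 CPM, lay below every tag of the 4 named lymphocyte classes. S1pr5, at 14.0, 30.6 and 14.0 CPM, overlapped with ILC1-like, T and B cell-like cells. Klf2 was at 455, 265 and 254 CPM and Cd69 at 284, 244 and 215 CPM. In 89.0% of its thinned cells no UMI of any of the 3 receptors was found, compared with 74.1% of ILC1-like cells and 52.2% of NK-like cells. No test was run on this cluster, which was singled out after its values were seen.

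Within NK-like cells, detection of S1pr1 and S1pr5 was less frequent in the same cell than the 2 shares predict. In thinned cells, 2.44% had a UMI of both, where independent detection within each tag gives 3.07%. The odds ratio was 0.70, 0.83 and 0.60 in tags 1, 2 and 3 and 0.72 over the tags (Mantel-Haenszel), and it was 0.74 when cells were also matched on stage. By group it was 0.66 in Itgam-only cells, with Klrg1- and Klrg1+ pooled, and 0.67 in cells with neither marker. Both of these groups still mix stages. In Cd27-only cells it was 1.28, where tag 2 alone was above 1, at 2.76, and tags 1 and 3 were at 0.73 and 0.62. Only 28 Cd27-only cells had both, so that value is imprecise. S1pr4 showed odds ratios of 1.04 with S1pr1 and 1.17 with S1pr5. Of all thinned NK-like cells, 38.9% had a UMI of 1 receptor gene, 8.43% of 2 and 0.519% of all 3. Cells are not replicates and a UMI can be missed by chance, so these ratios are a description. About 1795 barcodes, 15.3% of those analysed, are expected to be doublets of cells with the same tag, which add false co-detection. Leaving out the deepest cells cannot remove all of them, since a doublet need not be among the deepest. Without the deepest 10% of cells of each tag the S1pr1 and S1pr5 odds ratio was 0.71. At 1500 UMIs per cell it was 0.83, and tag 1 was then above 1, at 1.12.

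**Figure D3:**
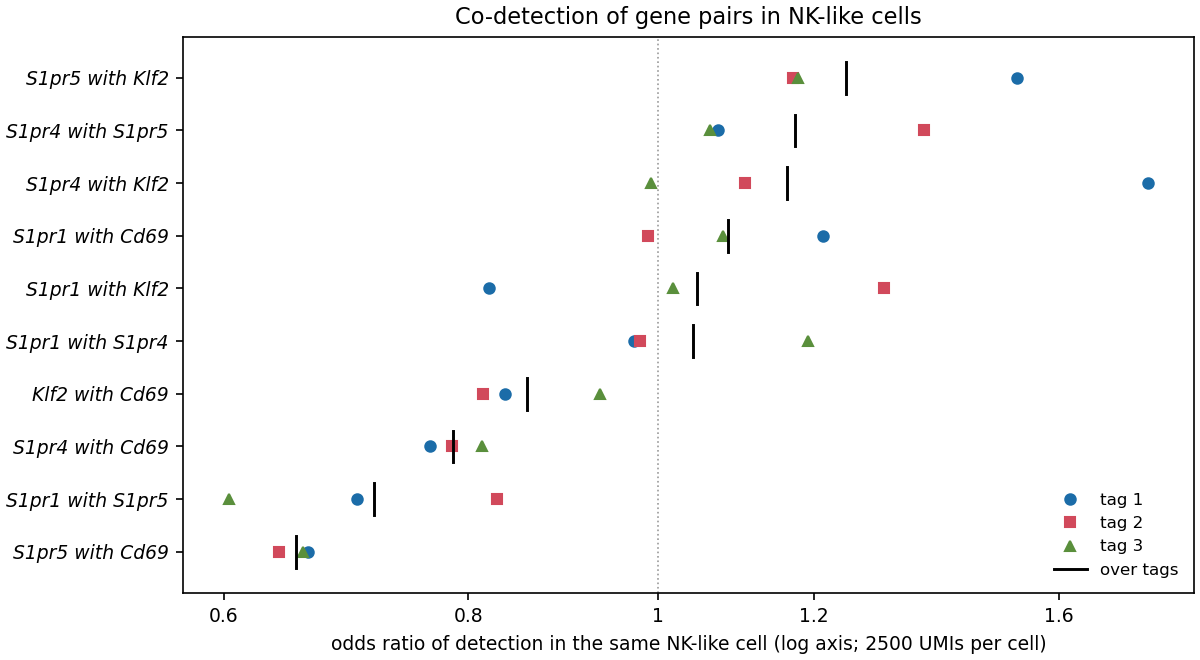
Odds ratio of detecting 2 genes in the same NK-like cell after thinning to 2500 UMIs (log axis), for each tag (points) and over tags (black bars). S1pr5 with Cd69 (0.65) and S1pr1 with S1pr5 (0.72) lie below 1 in all 3 tags, and S1pr5 with Klf2 (1.25) above 1 in all 3.

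Cd69 was detected less often in cells with S1pr5. The odds ratio was 0.66, 0.64 and 0.66 in the 3 tags, 0.65 over tags and 0.69 within stage. It was 0.79 for S1pr4 and 0.86 for Klf2. S1pr1, whose protein CD69 binds, showed no such pattern, at 1.21, 0.99 and 1.08. The same comparison as summed UMIs gave S1pr5 at 93.8, 99.9 and 105 CPM in NK-like cells with a Cd69 UMI and 128, 141 and 144 CPM in those without, with no overlap. S1pr5 was 1.36-fold lower with Cd69 (log2 -0.44, SE 0.062, adjusted p = 1.4e-10, edgeR), in a comparison that called 4.83% of 11421 genes. S1pr4 was lower by a log2 difference of -0.27 (SE 0.078, adjusted p = 0.017, edgeR), at 54.6, 68.2 and 70.3 CPM against 74.7, 79.5 and 82.6. Klf2 was lower by -0.12 (SE 0.026, adjusted p = 0.00017, edgeR), at 1352, 1169 and 990 CPM against 1544, 1278 and 1073, which overlap between tags. S1pr1 did not pass: its log2 difference was -0.03 (95% interval -0.21 to 0.14, adjusted p = 0.94). The S1pr4 call was lost without tag 1 (-0.20, adjusted p = 0.40) and without tag 2 (-0.32, adjusted p = 0.051), and the Klf2 call without tag 1 (-0.10, adjusted p = 0.059).

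Cells with a Cd69 UMI also had more immediate early RNA. Of 13 such genes tested, 9 were higher and 0 lower with Cd69, where 3.39% of all genes tested were higher, among them Fosb (log2 0.69), Jun (0.60) and Fos (0.51), parts of the AP-1 factor. Without the 25% of cells highest in these genes, the S1pr5 difference was -0.50 (adjusted p = 4.9e-07, edgeR) and the S1pr4 difference -0.23 (adjusted p = 0.21). Whether the Cd69 effect differed between Itgam-only and Cd27-only cells was tested directly as an interaction. None of S1pr1 (log2 0.59, adjusted p = 0.91), S1pr5 (-0.13, adjusted p = 0.999), S1pr4 (-0.34, adjusted p = 0.98) and Klf2 (-0.10, adjusted p = 0.98) passed edgeR's test. That test called 0.0355% of 8456 genes. An unadjusted p under 0.05 was found for 436 genes, or 5.16% of those tested, S1pr1 among them at 0.027; p-values fall under that threshold at about this rate where nothing differs.

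Shares of receptor-positive cells also differed with the number of Klf2 UMIs in the cell. Of NK-like cells with 0 Klf2 UMIs, 20.8%, 25.8% and 28.1% had an S1pr5 UMI in tags 1, 2 and 3, compared with 33.2%, 36.0% and 40.3% of those with 8 or more. Each tag was higher in the latter group, and the extreme groups did not overlap. The rise was not steady: with 1 Klf2 UMI, tags 2 and 3 were at 23.1% each, below their shares with 0, and tag 1 was at 23.8%. S1pr1 stayed at a mean of 9.32 to 11.5% over the 6 groups of Klf2 UMIs, without order. S1pr4 went from 15.1% to 18.2% with overlapping tags. Cd69 went from 26.2%, 24.9% and 17.4% in tags 1, 2 and 3 to 17.4%, 19.0% and 10.4%, lower in each tag, while the extreme groups overlapped between tags. All cells had the same 2500 UMIs here, and stage was not held fixed; within stage, the odds ratio of S1pr5 with Klf2 was 1.18, compared with 1.25 across stages.

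**Figure D4:**
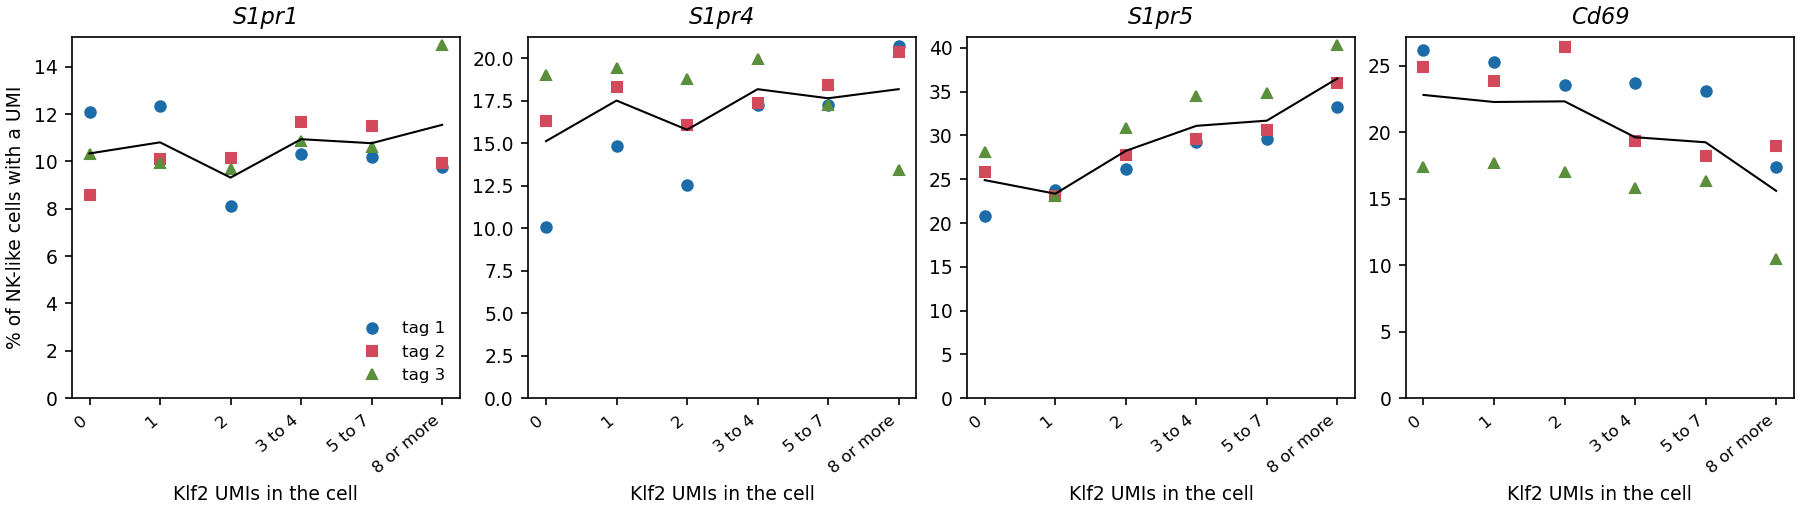
Percent of thinned NK-like cells with a UMI of S1pr1, S1pr4, S1pr5 or Cd69 (vertical axes, from 0) by the number of Klf2 UMIs in the cell (horizontal axes), with points for tags and a line for their mean. The mean S1pr5 share goes from 24.9% to 36.5%, with a dip to 23.3% at 1 Klf2 UMI. The Cd69 share falls from 22.8% to 15.6%, and the S1pr1 share stays near 10%.

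A wider list of 60 genes of S1P turnover, receptor coupling, movement, regulation and other traffic receptors put these values in context. Between the NK end classes 48 were tested, of which 12 were higher and 11 lower in Klrg1+ cells, where 14.9% of all genes tested passed in either direction; the list's median log2 difference was 0.07, against 0.01 over all genes. Higher were Cx3cr1, the fractalkine receptor (log2 4.42), Zeb2, a zinc finger repressor that promotes late NK maturation (1.29), Prdm1, which encodes Blimp-1 (1.15), and Itgb2, the integrin partner of CD11b (0.81). Lower were Il7r (-2.62), Gpr183, an oxysterol receptor (-2.0), Cxcr3 (-1.80) and Ccr2 (-1.55), both chemokine receptors. These are the 4 with the largest change in each direction among the list's genes that passed. None of the 4 tested genes of S1P production, export and breakdown passed the test, and of 11 genes of receptor coupling Gna13 alone did (-0.38). S1pr2, the one other S1P receptor gene with enough counts, was at 8.01 CPM in NK-like cells and did not pass (0.57, adjusted p = 0.39, edgeR). S1pr3 had 3 UMIs in all NK-like cells.

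The genes most like each of these 5 in pattern were found over 21 sums, of 7 classes with 3 tags each, by Pearson correlation of log2(CPM + 1) among 6285 genes. The sums share 1 library and differ in depth. S1pr5 was nearest to Prf1, which encodes perforin (r = 0.98), Lgals1 (0.97) and Gzma (0.97). Prf1 and Gzma are among the 8 markers that named the NK-like clusters, and most of the classes are NK stages. Any gene high in NK-like cells may correlate with them here, so these values show no specific link. S1pr1 was nearest to Acp5 (0.95), Rps27 (0.94) and Rapgef4 (0.94), and Cd69 to the ribosomal protein genes Rps9, Rpl37 and Rps20 (0.93 each). Klf2 was nearest to B3gnt2 (0.86), Arhgdib (0.84) and Cma1 (0.81), and S1pr4 to Aqr (0.85), Arpc2 (0.84) and Plec (0.84), at looser likeness than the others.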

How the data were processed

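RNA of NK-enriched spleen cells was counted cell by cell. The authors deposited raw UMI counts of 32285 genes and 3 lipid tags. The matrix header gives Cell Ranger 7.0.0 as its source; Seurat and the build mm10 are listed in the submitters' processing notes. Whether introns were counted is not given in the sources used here. Everything else was computed from these deposited counts. The filter kept barcodes of 500 to 6000 genes whose mitochondrial share was 10% or less, and removed 642. Tag thresholds (133.4, 186.8 and 130.5 counts) came from Otsu's method on log10(count + 1); 3567 barcodes with several tags, as doublets, and 479 with none were dropped. Total gene UMIs were 18485480, 23091461 and 22465648 in tags 1, 2 and 3.

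Clustering used scanpy 1.11.5 with leidenalg 0.10.2 (2000 variable genes, 30 components, 15 neighbours, resolution 1.0), leaving out the members, the wider list, the gate and immediate early genes. Clusters were named from marker lists by a score of at least 0.5 and 3 detected markers; this scoring was set after the clusters were seen, and so was a criterion, not reported here, that left 84 cells scored ILC1 (cluster 17) unnamed. Sums of UMIs over the cells of a class in each tag entered edgeR 4.0.16 (TMM, filterByExpr, robust quasi-likelihood, tag as a block, Benjamini-Hochberg adjustment over all genes, threshold 0.05). The quasi-likelihood test reports no SE. Each SE was derived as the absolute log2 difference divided by the square root of the test's F statistic, and is approximate. Intervals of log2 differences are 1.96 SE to either side. Binomial intervals cover counting error only. Cells for gates and shares were thinned to 2500 UMIs with a fixed seed; 1274 shallower NK-like cells were left out of them. DESeq2 1.42.0, RLE scaling, no count filter, no tag block, each tag left out and other cell sets were alternatives. Counts were also simulated with 1 fixed spread for all genes and no tag effect, so recovery in the real counts may be lower. There edgeR recovered 84% of genes raised 2-fold from Cd27-only to both markers, 36% of those raised 1.5-fold and 64% of those halved. For the interaction it recovered 32% of genes raised 2-fold.

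All 6 genes are named whatever their values. From the wider list, the 4 largest changes in each direction among genes that passed between the end stages are named. The members, lists and tests were chosen with earlier results of these data known.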

Additional observations from a re-analysis of the deposited data

How the results depend on the processing

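Over 45 results for single genes and 685 alternative values, the end-to-end changes of S1pr5, S1pr1, S1pr4 and Cd69, the Klrg1 step of S1pr1, the S1pr5, Klf2 and Cd69 differences between NK-like and ILC1-like cells and the S1pr5 difference with Cd69 stayed called in every alternative run. With no tag block, which treats the tags as unpaired, the log2 difference of Klf2 end to end was 0.60 and lost its call. Removing the block also ended the calls at the Klrg1 step for Cd69 (-0.43), Klf2 (0.25) and S1pr4 (0.42), and with Cd69 for Klf2 (-0.12) and S1pr4 (-0.27). The Klrg1 step of Cd69 was also lost in DESeq2 (-0.47), without the deepest 10% of cells (-0.38), without cycling cells (-0.37), without the 25% highest in immediate early genes (-0.45), at 1500 UMIs (-0.20) and with another seed (-0.13), and it turned to 0.052 with gates of 2 UMIs; leaving out 1 tag gave -0.74 to -0.31. For S1pr4 that step was lost in DESeq2 (0.43), without the deepest cells (0.39), without cycling cells (0.40) and with 2 UMIs (0.38), with 0.35 to 0.46 on leaving out 1 tag. For Klf2 it was lost at 1500 UMIs (0.13) and with 2 UMIs (0.22), with 0.18 to 0.27 on leaving out 1 tag, and for S1pr5 with 2 UMIs (0.33), with 0.38 to 0.47.

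From both markers to Klrg1-, S1pr5 lost its call with no block (0.43), in DESeq2 (0.43), by UMIs alone (0.38), without cells holding UMIs of other lineages (0.37), without those highest in immediate early genes (0.41), at 1500 UMIs (0.28), with 2 UMIs (1.15) and without any 1 tag (0.38 to 0.50), and Cd69 with no block (-0.51), without cells highest in immediate early genes (-0.50), with 2 UMIs (-1.33) and without tag 1 (-0.41) or 2 (-0.50). From Cd27-only to both, Klf2 lost it with no block (0.26), without the deepest cells (0.16), at 1500 UMIs (0.13), with 2 UMIs (0.35) and without tag 1 (0.21); S1pr5 gained one in 3 of 18 alternatives and Cd69 in 2.

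The S1pr1 excess of NK-like over ILC1-like cells lost its call in DESeq2 (0.48), with all clusters scored NK (0.40), with NK cells taken by UMIs alone (0.28) and with cluster 17 kept as ILC1-like (0.36), and was 0.38 to 0.65 on leaving out 1 tag. S1pr4 gained a call there with no count filter (0.37). With Cd69, Klf2 lost its call for NK cells by UMIs alone (-0.14), without the deepest cells (-0.084), at 1500 UMIs (-0.067) and with another seed (-0.074), with -0.13 to -0.098 on leaving out 1 tag. S1pr4 lost it in DESeq2 (-0.27), for NK cells by UMIs alone (-0.28) and without the cells highest in immediate early genes (-0.23), with -0.32 to -0.20.

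Differences that had not passed changed sign in several alternatives. With Cd69, S1pr1 was 0.10 without the deepest cells, 0.017 without cycling cells, 0.037 with another seed and -0.15 to 0.047 on leaving out 1 tag. From Cd27-only to both markers, S1pr1 was 0.057 with all clusters scored NK, 0.036 by UMIs alone, 0.0098 with another seed and -0.24 to 0.022 on leaving out 1 tag. Cd69 was 0.078 without the deepest cells, 0.031 without cycling cells, 0.058 at 1500 UMIs, 0.24 with 2 UMIs and -0.27 to 0.00066 on leaving out 1 tag. S1pr4 was -0.0042 at 1500 UMIs, -0.18 with another seed and -0.065 to 0.23. From both markers to Klrg1-, S1pr1 was 0.060 at 1500 UMIs, 0.015 gated on unthinned counts, 0.11 with 2 UMIs and -0.19 to 0.020 on leaving out 1 tag. S1pr4 was -0.0012 without cells holding UMIs of other lineages, -0.32 with 2 UMIs and -0.12 to 0.46. NK-like minus T for S1pr4 was -0.13 to 0.62, and NK-like minus B for Klf2 was 0.050 with no count filter and -0.11 to 0.0018. The interaction turned to 0.025 for Klf2 and to 0.30 for S1pr5 and 0.084 for S1pr4 when gated on unthinned counts, to 0.16 for S1pr5 at 1500 UMIs and 0.24 with another seed, and to 0.22 for S1pr4 with 2 UMIs. The odds ratio of S1pr1 with S1pr5 moved to 0.83 at 1500 UMIs, and that of S1pr5 with Cd69 to 0.70 at 1500 UMIs, 0.61 without the cells highest in immediate early genes and 0.69 within stage. The causes were not tested.

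The number of genes called moved with the settings: 532 to 1992 end to end, 62 to 395 at the Klrg1 step, 9 to 557 at the step before, 63 to 549 at the first, 83 to 1734 with Cd69, 0 to 8 for the interaction, and 1504 to 2711, 1266 to 2518 and 3225 to 5270 for NK-like against ILC1-like, T and B cell-like cells. The alternatives that leave out cells high in immediate early genes, leave out cluster 5 or keep cluster 17 were chosen after seeing the data. Ccr7 in NK stages and S1pr3 were limited by depth.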

Other observations

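Outside the lymphocyte classes, 3 of the genes had their highest or an uncommon level. Ccr7 was highest in cluster 10, whose 259 cells were led by Fscn1, which encodes an actin-bundling protein of mature dendritic cells, at 2018, 1126 and 1153 CPM in tags 1, 2 and 3. In that cluster S1pr1 was at 5.57 ± 3.16 CPM and Klf2 at 274 ± 94.1 CPM (SD, n = 3). The 79 monocyte or macrophage-like cells had S1pr5 at 86.5, 74.3 and 113 CPM, from 48 UMIs, and Klf2 at 1378 ± 210 CPM, while S1pr1 stood at 15.6 ± 6.93 CPM. Cd69 reached 900, 542 and 407 CPM in the 159 progenitor-like cells, above every lymphocyte class in its mean of 616 CPM but with overlap of tag 3 with T and B cell-like cells.

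Cluster 5 was the shallowest of the clusters named NK-like, with a median of 1511 UMIs per cell, and had Klf2 at 582 ± 99.0 CPM. Its NK marker score, 0.645, was the lowest of these clusters. The median mitochondrial share of its cells was 2.61%, against 1.34% in all NK-like cells, and Gm42418, Camk1d and AY036118 were its leading genes. The part of cell quality in its Klf2 level was not tested.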
